A study of Homo sapiens with 7 samples.

Results

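The MYC family and its MAX partners were followed as a list chosen with earlier results of these data known. Its 10 genes were taken by name. They were MYC, MYCN and MYCL, the shared partner MAX, the antagonists MXD1, MXI1, MXD3 and MXD4, and the further MAX partners MNT and MGA. All 10 were among the 19775 genes listed, and all 10 had a mean of 10 normalised reads or more over the libraries and were tested among 16351 genes.

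The cells were H1, an established human embryonic stem cell line of wild-type genotype, grown in E8, a defined medium with insulin, FGF2 and TGFβ that every group received. The groups were untreated E8 cells harvested at 48 h (n = 2) and cells kept in 1 µM XMD892, with 1 sample at 12 h, 2 samples at 24 h and 2 samples at 48 h. XMD892 is a small molecule, and the title of the study names ERK5, the MAP kinase encoded by MAPK7. E8 was sampled at 48 h only, so the 12 h and 24 h comparisons also span a difference in harvest time, and all comparisons with E8 share its 2 libraries. The labels do not state whether replicates came from separate cultures, and p-values reflect the spread among these samples alone, which may be technical. All cells came from a single line.

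Poly(A) RNA was sequenced, and values are normalised read counts, which are gene reads divided by 1 factor per library. The listed genes carried between 18528689 and 24148186 reads per library. All 8 pluripotency markers examined had a mean of 10 or more, and their summed value was 181549 to 200239 in XMD892 libraries and 182175 to 212067 in E8 libraries. Of 7 mesoderm marker symbols, which include both T and TBXT for the same gene, 4 had a mean of 10 or more. That gene was present under the symbol T only, with a mean under 10, and HAND1 was not analysed here. The mesoderm sum was 96.6 to 136 with XMD892 and 346 to 356 in E8. Of 6 neuroectoderm markers, 5 had a mean of 10 or more, and NEUROD1 was not analysed here. Their sum was 10844 to 21208 with XMD892, the 12 h library being the highest, and 9415 to 13028 in E8. Of 6 trophoblast and amnion markers, 1 had a mean of 10 or more (KRT7), and CGA, ISL1 and VTCN1 were not analysed here. The sum of those analysed was 79.1 to 136 with XMD892 and 163 to 202 in E8. The part of these markers in the results for the MYC network was not tested. In bulk RNA, fewer cells that express a gene and less RNA per cell cannot be told apart. MAPK7 itself was at 672 and 764 normalised reads at 48 h of XMD892 and at 711 and 727 in E8 and was called in no comparison; a kinase inhibitor need not alter the transcript of its target, so this does not check the labels.

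MYC proteins are basic helix-loop-helix leucine zipper factors that bind DNA only as dimers with MAX. MYC-MAX dimers activate genes for growth and ribosome synthesis, whereas MXD and MNT proteins compete for MAX and recruit SIN3 corepressors to the same sites. The sites are E-boxes, of which the sequence CACGTG is the preferred form. MGA, which carries a T-box as well as a MAX-binding domain, brings MAX into a Polycomb complex known as PRC1.6. In pluripotent stem cells MYC and MYCN are known for their role in self-renewal and proliferation, and MXD genes are known for their expression in cells that leave the cycle and differentiate.

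Promoter sequences were examined because the network's own factors bind CACGTG. RefSeq windows on GRCh38.p14 were each of 300 bases, with 250 before and 50 after a transcription start. They were found for 9 of the 10 genes (14 windows). MYC had no window here, so its promoter was not examined. The motif CACGTG, which reads the same on both strands, was present once in a window of 2 of the 9 genes, MXD4 and MNT. Among all genes with a window, 2396 of 27305 (8.77%) held it in at least 1 of their windows. Both windows are shown because they hold the motif; MXD4 was the gene of the set with the largest change at 48 h and MNT was called in no comparison. They lie at chr4:2262060-2262359, minus strand, for MXD4 and chr17:2401011-2401310, minus strand, for MNT, and are printed 5′ to 3′ with CACGTG in capitals.
MXD4: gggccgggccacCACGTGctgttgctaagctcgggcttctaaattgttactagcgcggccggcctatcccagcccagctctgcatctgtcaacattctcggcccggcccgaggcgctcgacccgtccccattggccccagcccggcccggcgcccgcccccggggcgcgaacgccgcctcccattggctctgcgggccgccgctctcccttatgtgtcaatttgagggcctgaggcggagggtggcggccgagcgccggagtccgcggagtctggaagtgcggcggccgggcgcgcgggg
MNT: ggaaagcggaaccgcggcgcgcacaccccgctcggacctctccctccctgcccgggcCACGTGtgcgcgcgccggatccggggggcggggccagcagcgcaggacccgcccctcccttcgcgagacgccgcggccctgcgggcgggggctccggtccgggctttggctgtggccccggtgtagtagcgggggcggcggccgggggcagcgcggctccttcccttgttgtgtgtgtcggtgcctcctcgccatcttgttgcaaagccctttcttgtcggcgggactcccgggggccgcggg
The motif starts 238 bases before the RefSeq start used for the MXD4 window and 193 bases before that used for MNT. These RefSeq starts differ from the gene starts given in the next paragraph. A match describes these letters only and no binding was measured.

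The genes lie on 9 chromosomes. On GRCh38 with GENCODE 29, MYCL spans chromosome 1 from 39895426 to 39902256, MYCN chromosome 2 from 15940564 to 15947007 and MYC chromosome 8 from 127735434 to 127741434. MAX spans chromosome 14 from 65006174 to 65102695. Of the antagonists, MXD1 lies on chromosome 2 from 69897688 to 69942945, MXD4 on chromosome 4 from 2247432 to 2262294, MXD3 on chromosome 5 from 177301461 to 177312757 and MXI1 on chromosome 10 from 110207605 to 110287365. MGA lies on chromosome 15 from 41621224 to 41773081 and MNT on chromosome 17 from 2384060 to 2401118.

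Levels of different genes were compared as normalised reads per kilobase of annotated exon. In E8, MYCN and MYC stood highest, at 780 ± 97.9 and 738 ± 6.85 per kilobase (SD, n = 2 for each value here). The difference between them was smaller than the spread between the MYCN libraries, and with the length of the longest transcript in place of all exon bases MYC was the higher. MYCL followed at 138 ± 30.3 and MAX at 115 ± 1.75, a gap within the spread of MYCL. MGA was at 81.6 ± 10.1, MXI1 at 75.1 ± 9.57, MXD4 at 62.3 ± 10.6, MXD3 at 58.8 ± 29.04 and MNT at 45.6 ± 7.10, and each gene's libraries overlapped with those of the next. By the longest transcript MXD3 and MXD4 stood above MGA and MXI1. MXD1 was lowest at 5.02 ± 0.479. The highest level was 155 times the lowest, and MXD1 rested on 39 and 36 reads in the E8 libraries.

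Set against E8 harvested at 48 h, XMD892 libraries had higher MXD4 and MXD1 transcripts at 48 h. At 24 h a broader set of transcripts was higher and included MYC and MYCN. The single 12 h library had lower MYCL and MXI1, the call of MXI1 being lost in 10 of 18 alternatives. At 48 h, 2 of the 10 genes were called at a limma adjusted p under 0.05 and both were higher, against a background of 11.5% of all tested genes called in either direction, 5.08% higher and 6.45% lower. At 24 h, 5 were called, all higher, namely MYC, MYCN, MXD1, MXD3 and MXD4, where 16.2% of all genes were called, 8.66% higher and 7.56% lower. At 12 h, 3 were called, MXD1 higher and MYCL and MXI1 lower, where 7.46% of all genes were called, 2.56% higher and 4.89% lower. The median log2 fold change of the 10 genes was 0.22 at 48 h, 0.49 at 24 h and 0.32 at 12 h, beside 0.02, 0.01 and 0.02 over all tested genes. At 48 h the count was 1 when either 48 h library was left out and 4 without E8 replicate 2. At 24 h it was 2 without 24 h replicate 1, and at 12 h it was 5 without E8 replicate 2.

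**Figure D1:**
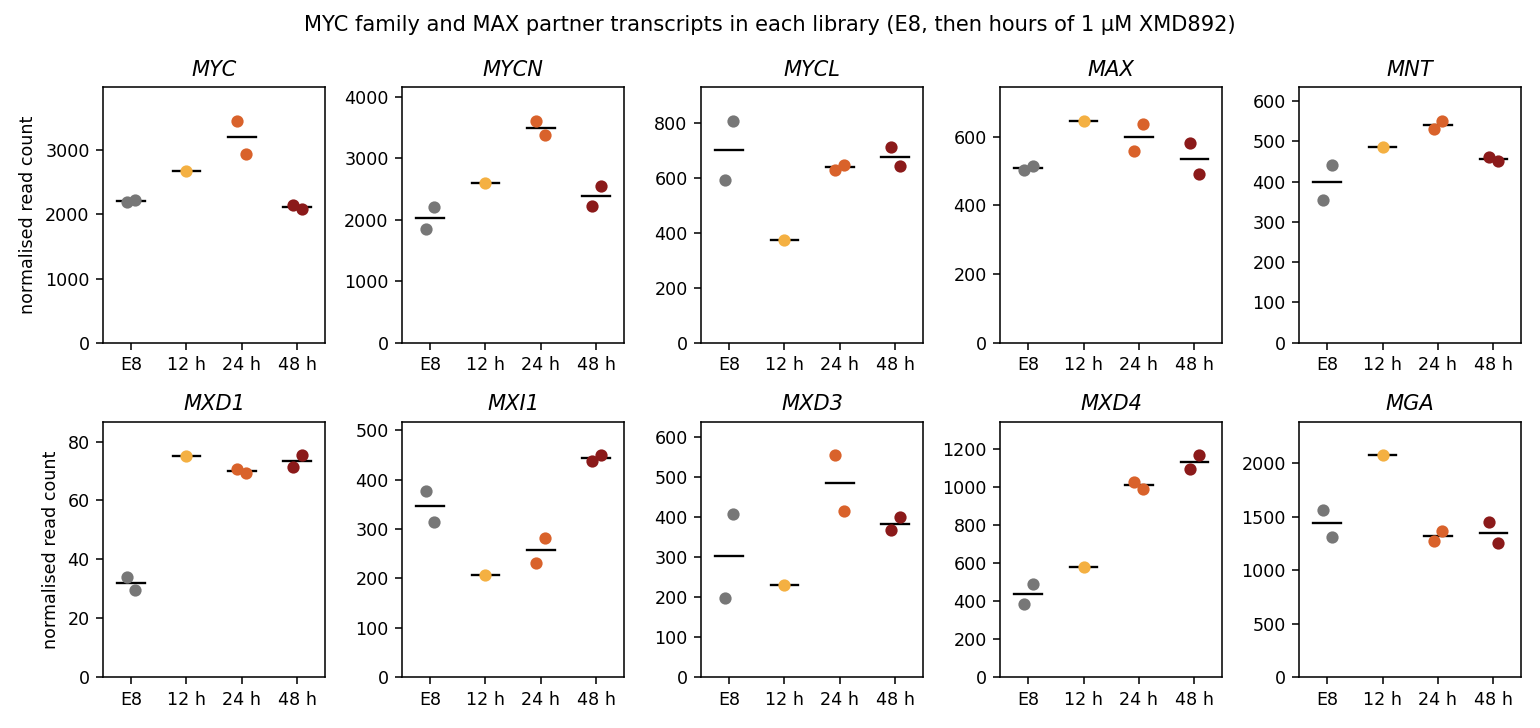
Normalised read count of each of the 10 genes (vertical axes, linear from 0) in each library, by group (horizontal axes: E8, then 12 h, 24 h and 48 h of XMD892). Points are libraries and bars are group means; MXD4 libraries at 24 h and 48 h, at 990 to 1168, lie above both E8 libraries at 387 and 492, and MYC is highest in the 24 h libraries.

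MYC, the family's broadly expressed member, was at 2201 and 2230 normalised reads in the E8 libraries, 2672 in the 12 h library, 3464 and 2943 in the 24 h libraries and 2152 and 2087 in those of 48 h of XMD892. The 24 h libraries were the highest, and the 48 h libraries lay just below those of E8. At 24 h MYC averaged 3204 ± 368 against 2216 ± 20.6 in E8 (SD, n = 2 each), a log2 fold change of 0.53 ± 0.144 (SE) or 1.44-fold, with a limma adjusted p of 0.016. Without 24 h replicate 1 the log2 fold change was 0.41 and the adjusted p from limma 0.30. At 48 h MYC was not called against E8: the log2 fold change was -0.06 with a 95% interval of -0.36 to 0.23. Between the treated times MYC was lower at 48 h than at 24 h by a log2 fold change of -0.59 ± 0.144 (SE), with a limma adjusted p of 0.046. That call was lost without any 1 of the 4 libraries compared, with limma adjusted p of 0.63 and 0.086 after leaving out replicate 1 or replicate 2 of 24 h, and of 0.36 and 0.24 after leaving out replicate 1 or replicate 2 of 48 h. It was also lost with edgeR and DESeq2, both on 6 libraries with only 1 at 48 h.

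MYCN, the member known for its expression in embryonic and neural progenitor cells, was at 1849 and 2209 normalised reads in the E8 libraries, 2592 in the 12 h library, 3610 and 3374 in the 24 h libraries and 2230 and 2549 in those of 48 h. The 24 h libraries were again the highest, and every treated library lay above both E8 libraries. At 24 h the mean was 3492 ± 167 against 2029 ± 255 in E8 (SD, n = 2 each), a log2 fold change of 0.79 ± 0.148 (SE) or 1.73-fold, with a limma adjusted p of 0.0012. Under 20 alternatives the value ranged from 0.66 to 0.92 and the call was kept in each. At 48 h the log2 fold change against E8 was 0.24 with a 95% interval of -0.07 to 0.55, and no call was made. Without E8 replicate 2 MYCN was called at both 48 h (limma adjusted p = 0.042) and 12 h (0.026). The log2 fold change at 48 h against 24 h was -0.55 (limma adjusted p = 0.076). That p was 0.024 with the trend along GC content removed and 0.0011 with only those groups fitted.

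MYCL, the third MYC gene, had its lowest value in the 12 h library. It was at 590 and 807 normalised reads in the E8 libraries, 375 in the 12 h library, 627 and 647 in the 24 h libraries and 711 and 642 in those of 48 h. The 24 h and 48 h libraries lay between those of E8, and the 12 h library lay below all others. At 12 h the log2 fold change was -0.88 ± 0.212 (SE), or 1.84-fold lower (limma adjusted p = 0.012), from a single library that is assumed to vary like the others. The adjusted p was 0.072 when only the 12 h and E8 groups were fitted, and the call was kept in the other 17 of 18 alternatives. At 24 h against 12 h the log2 fold change was 0.76 (limma adjusted p = 0.13), so a difference between those times was not called.

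MAX, the obligate dimer partner, was called in none of the 5 comparisons. It was at 505 and 516 normalised reads in the E8 libraries, 647 in the 12 h library, 559 and 637 in the 24 h libraries and 581 and 491 in those of 48 h. The 12 h library and both 24 h libraries lay above E8, whereas the 48 h libraries lay on either side of it. The log2 fold change was 0.07 at 48 h, with a 95% interval of -0.28 to 0.41, and no alternative called it.

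**Figure D2:**
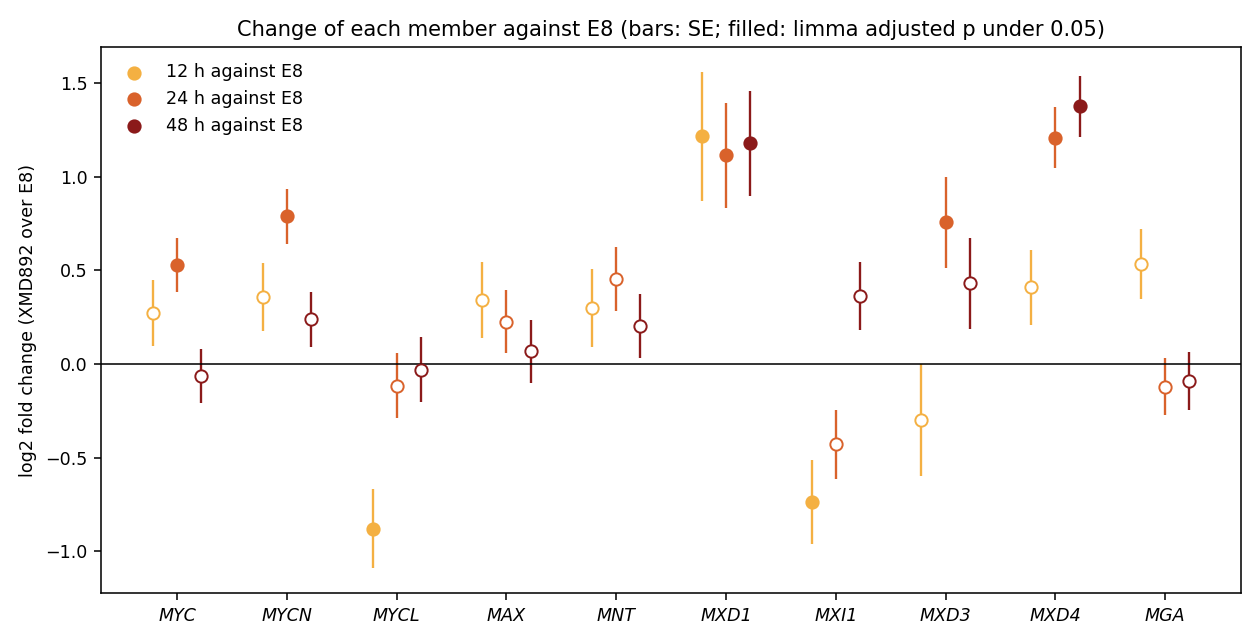
Log2 fold change of each gene (vertical axis, XMD892 over E8) at 12 h, 24 h and 48 h, from limma on log2(value + 1). Bars are standard errors and filled points passed an adjusted p under 0.05; MXD1 is filled at all 3 times, at 1.21, 1.11 and 1.18, and MXD4 is at 1.21 and 1.37 at 24 h and 48 h.

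MXD4, a MAX-binding repressor and the most abundant MXD transcript in the treated libraries per kilobase of all exon bases, was at 387 and 492 normalised reads in the E8 libraries, 580 in the 12 h library, 1029 and 990 in the 24 h libraries and 1098 and 1168 in those of 48 h. Every treated library lay above both E8 libraries, and those of 24 h and 48 h lay above the 12 h library. At 48 h the mean was 1133 ± 49.6 against 440 ± 74.7 in E8 (SD, n = 2 each), a log2 fold change of 1.37 ± 0.163 (SE) or 2.59-fold, with a limma adjusted p of 7.5e-06. At 24 h the log2 fold change was 1.21 (limma adjusted p = 4.5e-05). Both calls were kept in all 20 alternatives, within 1.2 to 1.55 at 48 h and 1.03 to 1.38 at 24 h. At 12 h the value of 0.41 was not called (limma adjusted p = 0.23), although it was without E8 replicate 2 (0.018). At 24 h against 12 h the log2 fold change was 0.80 (limma adjusted p = 0.081).

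MXD1, an antagonist first known from differentiating myeloid cells, was at 34.1 and 29.7 normalised reads in the E8 libraries, 75.1 in the 12 h library, 70.8 and 69.2 in the 24 h libraries and 71.3 and 75.4 in those of 48 h. Exons of MXD1 overlap those of SNRNP27 on the same strand over 3.73% of their bases. SNRNP27 was at 356 and 349 in the E8 libraries and at 429 to 496 in the treated libraries, and was called in no comparison. The part of this overlap in the MXD1 counts was not tested. For MXD1 itself, all treated libraries lay close together above both E8 libraries. The log2 fold change was 1.21 ± 0.343 (SE) at 12 h, 1.11 ± 0.28 at 24 h and 1.18 ± 0.28 at 48 h, with limma adjusted p of 0.033, 0.0098 and 0.0082. The direction held in every alternative, but the calls did not, and the gene carried only 36 to 74 reads in the 6 libraries whose reads were recovered. Leaving out 48 h replicate 1 gave a limma adjusted p of 0.055 for the 48 h comparison, leaving out 48 h replicate 2 gave 0.071, edgeR gave 0.081 and DESeq2 0.27. At 24 h it was 0.065 without 24 h replicate 1 and 0.087 with DESeq2. At 12 h it was 0.10 with only those groups fitted, 0.053 with edgeR and 0.21 with DESeq2.

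MXI1, also called MXD2, was lower at 12 h than in E8 and higher at 48 h than at 24 h. It was at 377 and 315 normalised reads in the E8 libraries, 206 in the 12 h library, 231 and 282.5 in the 24 h libraries and 437 and 449 in those of 48 h. The 12 h and 24 h libraries lay below E8 and the 48 h libraries above it. At 12 h MXI1 was lower than in E8 by a log2 fold change of -0.74 ± 0.225 (SE), 1.67-fold, with a limma adjusted p of 0.048. That p was 0.075 without E8 replicate 1, and the call was lost in 10 of 18 alternatives. At 48 h MXI1 was higher than at 24 h, at 443 ± 8.44 against 257 ± 36.3 (SD, n = 2 each), a log2 fold change of 0.79 ± 0.184 (SE) with a limma adjusted p of 0.035. By limma it was 0.45 when 24 h replicate 1 was left out, 0.28 when 48 h replicate 1 was and 0.20 when 48 h replicate 2 was. Against E8 the 48 h value of 0.36 was not called (95% interval -0.02 to 0.74; limma adjusted p = 0.035 with the GC trend removed), and that at 24 h was -0.43 (limma adjusted p = 0.12; 0.027 without E8 replicate 2).

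MXD3, an antagonist known in cells in S phase, differed most between the E8 libraries. It was at 197 and 409 normalised reads in the E8 libraries, 231 in the 12 h library, 555 and 415 in the 24 h libraries and 367 and 400 in those of 48 h. The 24 h libraries lay above E8, by a narrow margin over E8 replicate 2, and the 12 h and 48 h libraries lay between those of E8. At 24 h the log2 fold change was 0.75 ± 0.244 (SE), with a limma adjusted p of 0.038. Without E8 replicate 1 it was 0.23 (limma adjusted p = 0.50) and without 24 h replicate 1 it was 0.55 (0.21), and edgeR (0.068) and DESeq2 (0.50) did not call it. Without E8 replicate 2 it was called higher at 48 h (limma adjusted p = 0.00045), and without E8 replicate 1 lower at 12 h (0.012). Exons of MXD3 overlap those of RAB24, a small GTPase gene on the same strand, over 17.97% of their bases and those of PRELID1 on the opposite strand over 22.47%, and the strand setting of the counting is not given, so its counts are uncertain. RAB24 was at 68.1 and 147 in the E8 libraries, 114 in the 12 h library, 256 and 196 in the 24 h libraries and 195 and 204 in those of 48 h, and was called higher at 24 h (log2 fold change 1.16, limma adjusted p = 0.0061; 0.093 without E8 replicate 1). At 48 h, when MXD3 was not called, RAB24 was also called higher (log2 fold change 0.99, limma adjusted p = 0.019). It lost that call when E8 replicate 1 was left out (0.26), when either 48 h library was (0.093 and 0.11), and with edgeR and DESeq2. PRELID1 stood at 2615 and 3278 normalised reads in E8 and at 2381 in the 12 h library. Its 24 h libraries were at 4513 and 4351 and those of 48 h at 3000 and 3707. By limma its 24 h libraries were called above E8 (adjusted p = 0.011), by 0.60 in log2 terms. The 48 h libraries gave no such call. Over the single 12 h library the 24 h pair stood higher by 0.90 in log2 terms. The part of either overlap in the MXD3 counts was not tested.

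MNT, a broadly expressed MAX-binding repressor, was called in no comparison. It was at 354 and 442 normalised reads in the E8 libraries, 487 in the 12 h library, 531 and 552 in the 24 h libraries and 461 and 450 in those of 48 h. Every treated library lay above both E8 libraries, with the 24 h pair the highest. At 24 h the log2 fold change was 0.45 ± 0.171 (SE; limma adjusted p = 0.075), and without E8 replicate 2 that p was 0.0063. An antisense gene, AC006435.1, covers 12.2% of its exon bases.

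MGA, the T-box partner of MAX, had its highest value in the 12 h library and was called in no comparison. It was at 1566 and 1314 normalised reads in the E8 libraries, 2076 in the 12 h library, 1269 and 1369 in the 24 h libraries and 1448 and 1253 in those of 48 h. The 12 h library lay above all others, whereas the 24 h and 48 h libraries overlapped with E8. The log2 fold change at 12 h was 0.53 ± 0.188 (SE; limma adjusted p = 0.086). It passed without E8 replicate 1 (0.0070) and with the trend along GC content removed (0.0086), but not without E8 replicate 2. At 24 h against 12 h the log2 fold change was -0.65 (limma adjusted p = 0.14).

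Between successive treated times few genes of the set were called. At 48 h against 24 h, 2 of the 10 were called, MYC lower and MXI1 higher, where 1.2% of all genes were called, 0.856% lower and 0.349% higher. The count was 0 when either 48 h library or 24 h replicate 1 was left out, and 1, MXI1, when 24 h replicate 2 was. At 24 h against 12 h, 0 were called by limma, edgeR or DESeq2, where 0.391% of all genes were called by limma, 0.263% higher and 0.128% lower. At an unadjusted p under 0.05, limma and edgeR each picked 5 genes, with MYCN, MYCL, MXD3 and MXD4 higher and MGA lower, and DESeq2 picked 4. Of the 16351 genes tested, 1745 had such a p by limma, 1436 by edgeR and 834 by DESeq2. The limma count of called genes of the set was 5 when only those groups were fitted, where 1457 of all genes were called, beside 64 with all libraries. It was 1, MXD3, without 24 h replicate 2, where 156 of all genes were called.

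Summed per kilobase, the 3 MYC transcripts were highest at 24 h and the 4 antagonist transcripts of the MXD group (MXD1, MXI1, MXD3 and MXD4) were highest at 48 h. The MYC sum was 1561 and 1752 in the E8 libraries, 1961 in the 12 h library, 2666 and 2405 in the 24 h libraries and 1714 and 1802 in those of 48 h. The MXD sum was 180 and 222 in the E8 libraries, 183 in the 12 h library, 315 and 293 in the 24 h libraries and 333 and 352 in those of 48 h. The 24 h and 48 h libraries lay above both E8 libraries in the MXD sum, while in the MYC sum the 48 h libraries overlapped with E8. Leaving out MXD3, the MXD sum was 142 and 143 in the E8 libraries, 139 in the 12 h library, 207 and 213 in the 24 h libraries and 262 and 275 in those of 48 h.

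The ratio of the MXD sum to the MYC sum was 0.116 and 0.127 in the E8 libraries, 0.0936 in the 12 h library, 0.118 and 0.122 in the 24 h libraries and 0.194 and 0.196 in those of 48 h. The 24 h ratios lay within the E8 range and the 48 h ratios above it. With the length of the longest transcript the ratio was 0.161 and 0.192 in the E8 libraries, 0.139 in the 12 h library, 0.186 and 0.186 in the 24 h libraries and 0.282 and 0.289 in those of 48 h, with the 12 h library again lowest and those of 48 h highest. MXD4 made up 30.4% and 31.4% of the MXD sum in the E8 libraries, 44.8% in the 12 h library, 46.3% and 47.9% in the 24 h libraries and 46.7% and 47.0% in those of 48 h. MXI1 made up 45.4% and 30.8% in the E8 libraries, 24.4% in the 12 h library, 15.9% and 20.9% in the 24 h libraries and 28.5% and 27.7% in those of 48 h. MYCL made up 7.47% and 9.10% of the MYC sum in the E8 libraries, 3.77% in the 12 h library, 4.65% and 5.31% in the 24 h libraries and 8.19% and 7.03% in those of 48 h. These sums and shares describe transcripts, are not tests, and say nothing of the amounts of protein.

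**Figure D3:**
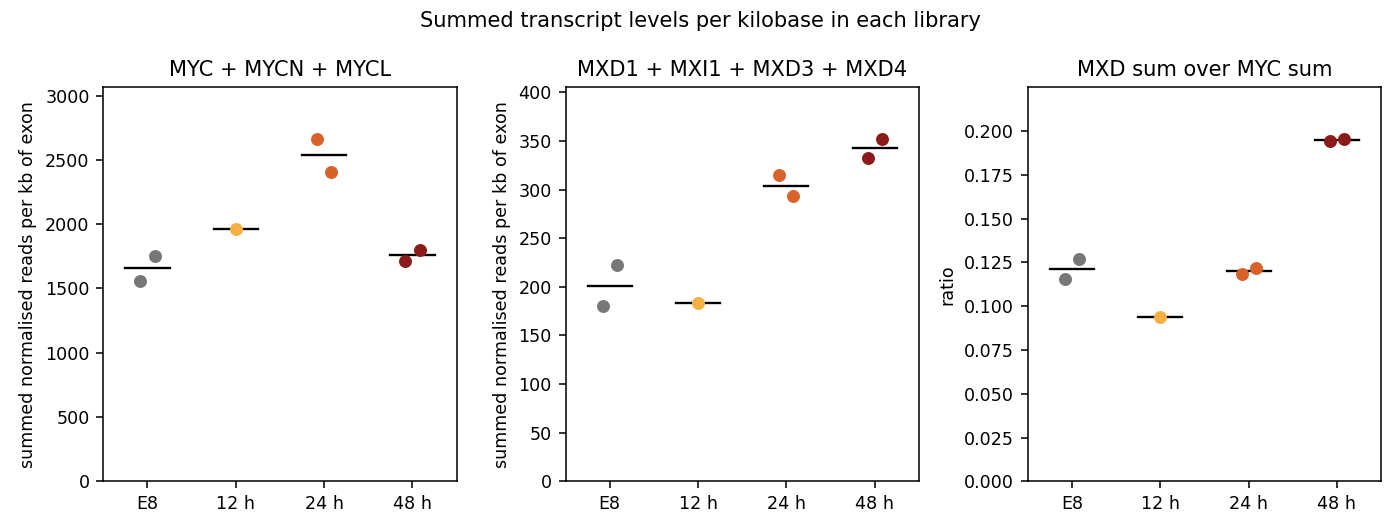
Summed normalised reads per kilobase of exon (vertical axes of the left and middle panels, linear from 0) of the MYC genes and of the MXD group, and their ratio (right panel), in each library by group. Points are libraries and bars are group means; the ratio is 0.194 and 0.196 at 48 h and between 0.0936 and 0.127 in all other libraries.

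Between the E8 libraries there was a difference along transcript GC content, and the genes of the set followed its direction. Over 16023 genes with a known transcript the Spearman correlation between the log2 ratio of E8 replicate 2 over replicate 1 and transcript GC content was 0.64, a description across genes, which are not independent replicates. Within the 24 h replicates it was 0.00 and within the 48 h replicates -0.21. All 3 genes of the set with a GC content under 50%, MGA, MXD1 and MXI1, were lower in E8 replicate 2, by log2 ratios of -0.25, -0.19 and -0.26. All 7 with 50% or more were higher there, from MYC at 0.02 and MAX at 0.03 to MYCL at 0.45 and MXD3 at 1.05. Of the set, MXD3 differed most between the E8 libraries and MYC and MAX least. Calls that changed without 1 of the E8 libraries are given with each gene above.

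**Figure D4:**
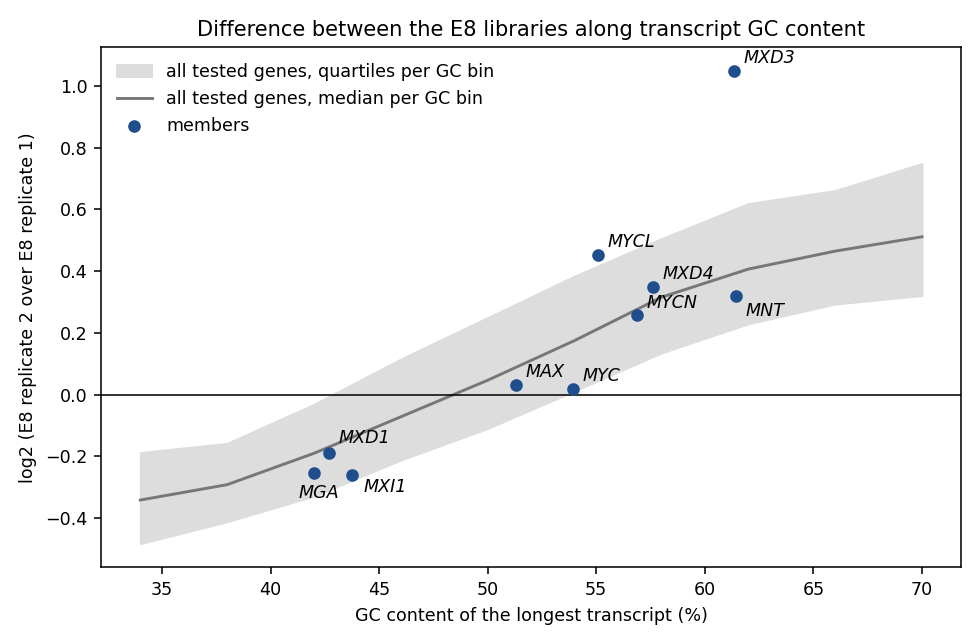
Log2 ratio of E8 replicate 2 over E8 replicate 1 (vertical axis) against the GC content of the longest transcript in percent (horizontal axis), with the median and quartiles of all tested genes per GC bin. Points are the genes of the set; those with GC under 50% lie below 0, and MXD3 at 61.3% GC stands highest at 1.05.

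Genes known to be induced by MYC-MAX, among them ribosome synthesis and metabolic genes, were counted in the same comparisons. Of 30 tested, 3 were higher and 0 lower at 48 h, 7 higher and 1 lower at 24 h, and 4 higher and 0 lower at 12 h, beside 5.08%, 8.66% and 2.56% of all genes called higher. Their median log2 fold change was -0.02 at 48 h, 0.06 at 24 h and 0.15 at 12 h, beside the medians of 0.02, 0.01 and 0.02 over all genes. When E8 replicate 2 was left out, 48 h gave 9 higher and 3 lower, 24 h gave 12 higher and 2 lower, and 12 h gave 9 higher and 0 lower, where the genes called higher among all 16351 tested numbered 2390, 2897 and 1676. With 48 h replicate 1 left out 1 was higher at 48 h, and with 24 h replicate 2 left out 4 were higher at 24 h. At 48 h against 24 h, 0 were higher and 2 lower: RRS1, a ribosome assembly factor, at -0.68 on the log2 scale (limma adjusted p = 0.042), and SRM, spermidine synthase, at -0.70 (0.014), both named after their values were seen. Leaving out 1 of the libraries compared gave RRS1 an adjusted p of 0.14 to 0.37, and SRM lost its call without either 24 h library (0.11 and 0.12) or 48 h replicate 1 (0.42).

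ODC1, the first enzyme of polyamine synthesis and a well-known MYC target, was at 2757 and 2888 normalised reads in the E8 libraries, 8613 in the 12 h library, 8031 and 6526 in the 24 h libraries and 5628 and 5563 in those of 48 h. Every treated library lay above E8 and the 12 h library was the highest. The log2 fold change was 1.61 ± 0.176 (SE) at 12 h, 1.36 ± 0.143 at 24 h and 0.99 ± 0.143 at 48 h, with limma adjusted p of 3.8e-06, 1.9e-06 and 8e-05, and these calls were kept in every alternative. CDK4, a kinase of G1 progression, averaged 2775 ± 163 at 48 h against 1724 ± 250 in E8 (SD, n = 2 each; log2 fold change 0.69, limma adjusted p = 0.0043; 0.079 without 48 h replicate 1). RIOX2, a ribosomal oxygenase, averaged 405 ± 26.1 at 48 h against 273 ± 5.23 in E8 (log2 fold change 0.57, limma adjusted p = 0.035); that p was 0.12 without 48 h replicate 1 and 0.22 without 48 h replicate 2. The genes called higher at 24 h also included BOP1 and RRS1, which serve ribosome assembly, with log2 fold changes of 0.72 and 0.69; RRS1 was not called without 24 h replicate 2 (0.065). LDHA, a lactate dehydrogenase subunit, was lower at -0.42 and lost its call in 12 of 20 alternatives, among them without E8 replicate 1 (0.08) and without either 24 h library (0.27 and 0.20). NME2 and EIF4A1, also called at 24 h, overlap readthrough genes and their counts are uncertain; these 24 h genes were named after their values were seen.

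Genes known to be repressed by MYC went both ways. Of 11 tested, 1 was higher and 3 lower at 48 h, 3 higher and 2 lower at 24 h, and 1 higher and 2 lower at 12 h. Of all genes, 5.08% were called higher and 6.45% lower at 48 h. The shares for 24 h were 8.66% higher and 7.56% lower, and those for 12 h were 2.56% higher and 4.89% lower. CDKN1A, the cyclin-dependent kinase inhibitor p21, was at 151 and 189 normalised reads in the E8 libraries, 267 in the 12 h library, 150 and 174 in the 24 h libraries and 58.3 and 63.5 in those of 48 h. Its 48 h libraries were the lowest, with a log2 fold change against E8 of -1.46 and a limma adjusted p of 0.00013, and at 48 h against 24 h it was -1.39 (0.0012); both calls were kept in every alternative. CDKN1C, the inhibitor p57, averaged 2060 ± 468 at 48 h against 1158 ± 50.3 in E8 (SD, n = 2 each; log2 fold change 0.81, limma adjusted p = 0.0021; 0.096 without 48 h replicate 2). NDRG2 averaged 295 ± 36.7 at 48 h against 449 ± 16.1 in E8, a log2 fold change of -0.61, and CLU, the chaperone clusterin, 1709 ± 70.6 against 2478 ± 169, a log2 fold change of -0.53. Neither was called without 48 h replicate 1 (limma adjusted p of 0.081 for NDRG2 and 0.10 for CLU) or 48 h replicate 2 (0.26 and 0.16). Without E8 replicate 2 the 48 h counts were 3 higher and 3 lower, where 2390 of all genes tested were called higher and 1667 lower. Without 48 h replicate 1 they were 1 and 1, and without 48 h replicate 2 they were 0 and 1.

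Protein partners and regulators of the network were counted in the same way, beside 11.5% of all genes called at 48 h and 16.2% at 24 h, and those named for 12 h or 24 h were chosen after their values were seen. These counts depended on E8 replicate 2, without which 4057 of all genes were called at 48 h and 4917 at 24 h. Of 14 SIN3 and NCOR corepressor genes, 0 were called at 48 h, and at 24 h SAP30 was higher (log2 fold change 0.68) and RBBP4 lower (-0.46). Without E8 replicate 1 or 24 h replicate 1 neither was called (limma adjusted p of 0.083 and 0.17 for SAP30 and 0.062 and 0.18 for RBBP4), and RBBP4 was not without 24 h replicate 2 (0.18). With E8 replicate 2 left out, the counts for the corepressor genes were 3 higher and 6 lower at 24 h and 2 higher and 1 lower at 48 h. Of 10 genes of the MGA complex PRC1.6, 1 was called at 48 h and at 24 h: RING1, a Polycomb ubiquitin ligase, at 834 ± 98.3 at 48 h against 482 ± 152 in E8 (log2 fold change 0.82, limma adjusted p = 0.0066; 0.098 without 48 h replicate 2). Of 16 MYC coactivator genes, ACTL6A was higher at 48 h (0.53) and BPTF, a chromatin remodelling subunit, lower (-0.59). Neither was called without 48 h replicate 1 (limma adjusted p of 0.10 for ACTL6A and 0.085 for BPTF) or 48 h replicate 2 (0.16 and 0.13), nor BPTF without E8 replicate 1 (0.051). At 24 h 0 of the coactivator genes were higher and 1, BPTF, lower. Leaving out E8 replicate 2 gave 8 higher and 1 lower at 24 h, and 5 higher and 1 lower at 48 h. Of the 3 genes of the related MLX branch, 0 were called by limma with all libraries in any comparison, and 1 was lower at 48 h without E8 replicate 1 or with the GC trend removed.

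Among genes for turnover of MYC protein, STUB1, a ubiquitin ligase, was higher and USP28, a deubiquitinase, lower at 24 h (log2 fold changes of 1.19 and -0.56). STUB1 was at 1444 and 1357 normalised reads in the 24 h libraries against 402 and 939 in the E8 libraries, and its call was lost with robust variance moderation (limma adjusted p = 0.097) and with DESeq2 (0.26). USP28 was not called without E8 replicate 1 (limma adjusted p = 0.066) or 24 h replicate 1 (0.24). Of 10 genes whose proteins bind MYC-family mRNAs or govern their stability, 0 were higher and 2 lower at 48 h, where 6.45% of all genes were called lower. The counts were 1 higher and 4 lower without E8 replicate 2. Those called with all libraries were LIN28B, which blocks let-7 maturation, at 2154 ± 146 against 4191 ± 752 in E8 (SD, n = 2 each; log2 fold change -0.95, limma adjusted p = 0.00025), called in every alternative, and ZFP36L2, at 1712 ± 65.2 against 2647 ± 311 (-0.62, limma adjusted p = 0.0074; 0.098 without 48 h replicate 1 and 0.052 without 48 h replicate 2). LIN28B and IGF2BP3 were lower at 24 h, the call of IGF2BP3 being lost without E8 replicate 1 (0.093) or 24 h replicate 1 (0.32). Of 14 genes upstream of MYC transcription, 0 were called at 24 h or 48 h by limma with all libraries. When E8 replicate 2 was left out, 2 were higher and 2 lower at 24 h and 2 were higher at 48 h. LEF1 was higher at 12 h (log2 fold change 1.46, limma adjusted p = 0.047), where 2.56% of all genes were called higher. It was at only 27.1 and 19.8 normalised reads in the E8 libraries and 65.5 in the single 12 h library. The call was lost in 8 of 17 alternatives, among them without E8 replicate 2.

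The noncoding neighbours PVT1, next to MYC, and MYCNOS, antisense to MYCN over 3.77% of its exon bases, were called in no comparison. PVT1 was at 136 and 147 normalised reads in the E8 libraries, 205 in the 12 h library, 160 and 158 in the 24 h libraries and 140 and 150 in those of 48 h. MYCNOS was at 44.5 and 81.8 in the E8 libraries, 67.6 in the 12 h library, 59.4 and 73.9 in the 24 h libraries and 64.8 and 62.5 in those of 48 h. PVT1 was highest at 12 h, when MYC was not.

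The profiles of MYC and MYCN over the libraries were set beside those of the 11366 genes with a mean of 100 or more. The measure was Pearson's r of log2 values over 7 libraries, which share groups and normalisation, given as a description. Nearest to MYC were JTB (0.978), TNFRSF1A (0.967) and CST3 (0.964). Nearest to MYCN were HIRA (0.992), PYCR3 (0.9902) and ZNF707 (0.9897). MYC and MYCN had an r of 0.865 with each other. By r, MYCN ranked 106 among the genes nearest to MYC, and MYC ranked 463 among those nearest to MYCN.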

How the data were processed

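The authors deposited a normalised signal for each gene symbol; its steps show read counts per gene scaled by a single factor in each library. Per the submitters' processing notes, Trimmomatic 0.36, STAR, featureCounts 1.5.3, DESeq2 1.26.0 and hg38 were used; annotation, strand setting and filters are not given in the sources used here. Values divided by their library's smallest value lay within 0.1 of whole numbers. At 48 h replicate 2 that value, 0.992, lay within the tolerance around 1 of the check for whole reads. The check did not accept this library, although its values divided in the same way. Count tests therefore used 6 libraries, with 1 library at 48 h. A further 2 columns, named as more 12 h XMD892 libraries, match no sample and were not used, so 12 h rests on 1 library here.

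Genes with a mean of 10 or more were tested with limma 3.58.1 (R 4.3.3) on log2(value + 1), which understates changes of low genes, with 1 mean per group over all 7 libraries and a trended prior variance. The threshold was an adjusted p under 0.05 (Benjamini-Hochberg, all tested genes together). The single 12 h library, or a library left alone in its group, is assumed to vary like the others. GENCODE 29 gave coordinates and lengths for 97.7% of symbols, and RefSeq the promoters.

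All 10 members are named; of each other list, up to 4 called genes of largest change at 48 h; and for MYC and MYCN the 3 most alike genes. Members and lists were chosen with earlier results of these data known. Alternatives were other pseudocounts, filters, scalings, variance moderation, fits of only the groups compared, a replicate block, GC trend removal, leaving out each replicate, and edgeR 4.0.16 and DESeq2 1.42.0. The count tests on 6 libraries and GC removal without either E8 library were added after seeing the data. The fitting was tested on simulated data. A gene of the list for MYC protein turnover is not reported here.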

Additional observations from a re-analysis of the deposited data

Results flagged for a closer look

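By limma with all libraries, 48 h and 24 h of XMD892 differed for 2 of the genes, in the test of 48 h against 24 h itself. For MYC the log2 fold change between these times was -0.59 (limma adjusted p = 0.046), with 48 h libraries at 2152 and 2087 normalised reads and 24 h libraries at 3464 and 2943. For MXI1 it was 0.79 (limma adjusted p = 0.035), with 48 h libraries at 437 and 449 and 24 h libraries at 231 and 282.5. The call of MYC was lost without any 1 of the 4 libraries compared and that of MXI1 without any 1 of 3 of them. With edgeR and DESeq2 neither was called, but these fits lacked 48 h replicate 2, so 48 h rested on 1 library. No group had 4 or more samples, so no sample was tested as standing apart within its group.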

How the results depend on the processing

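Of the values of single genes under the alternatives, 2014 were counted as unchanged and 201 lost a call. A further 25 gained one and 0 reversed a called direction. The unchanged include uncalled values that stayed uncalled but changed sign, such as MGA at 24 h against E8 (log2 fold change -0.25 to 0.07). They also include the level of MYCN per kilobase. With the length of the longest transcript, 9 such levels moved by more than their spread. MXD4 at 24 h and 48 h and MYCN at 24 h kept their calls in all 20 alternatives run for them.

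The number of the 10 genes called was 2 at 48 h against E8 and ranged from 1 to 4 when 1 library was left out, with 1 by edgeR and 1 by DESeq2. At 24 h against E8 it was 5, ranged from 2 to 7 with 1 library left out and was 3 by DESeq2. At 12 h against E8 it was 3, ranged from 4 to 5 without an E8 library, and was 0 with only those groups fitted, 1 with edgeR and 1 with DESeq2. At 48 h against 24 h it was 2, ranged from 0 to 1 with 1 library left out, and was 1 with TMM scaling, 1 with quantile normalization, 0 with edgeR and 0 with DESeq2. At 24 h against 12 h it was 0, ranged from 0 to 1 with 1 library left out, and was 5 with only those groups fitted and 2 with the GC trend removed. Where no value above bears on it, the cause was not tested.

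Replicate numbers did not pair the samples: deviations from the group means correlated at -0.04 between E8 and 24 h, -0.05 between E8 and 48 h and -0.07 between 24 h and 48 h. With replicate numbers as a block, 2 genes were called at 48 h against E8 and 1 at 12 h.

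Without E8 replicate 2, 4057 genes of 16351 were called at 48 h, against 1884 with all libraries; without E8 replicate 1 the count was 1601. Further limits are groups of 1 or 2 libraries, and E8 sampled at 48 h only. MXD1 had the fewest reads of the set, 36 to 74 in the libraries whose reads were recovered, which limits its precision. The planned edgeR and DESeq2 fits on all 7 libraries were not run.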
